A study of Mus musculus with 4 samples.

Results

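The promoters described here belong to 1741 long non-coding RNA genes of the mouse, out of 23627 genes whose promoters were counted in left ventricle. A gene was taken when its promoter row carried a RefSeq identifier of the non-coding kind and the RefSeq gene table gave its type as long non-coding RNA, so that microRNA and small nucleolar RNA genes stayed out. Mhrt, the antisense transcript of the myosin heavy chain locus, was left out by the same rule. Where a gene had several identifiers (197 of the 1741 genes), the one with the highest mean count stood for it. A mean count of at least 10 over the 4 libraries was reached by 1724 of the 1741 promoters, out of 22831 genes in all. Of the other 17 promoters, 2 had a count of 0 in all 4 libraries.

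The assay was chromatin immunoprecipitation with an antibody to acetylated histone H3, followed by sequencing (ChIP-seq), on left ventricle of male C57BL6 mice aged 10 to 12 weeks. Sham Veh mice had sham surgery and injections of the vehicle DMSO. Sham TSA mice had sham surgery and TSA in DMSO. TSA, or trichostatin A, blocks histone deacetylases. TAC Veh mice had transverse aortic constriction, a banding of the aorta that puts the left ventricle under pressure overload, with DMSO. TAC TSA mice had the constriction and TSA. All mice were injected under the skin 2 times a day at 0.6 mg/kg/day for 4 weeks. Each of the 4 groups was 1 library, and the sources used here do not say how many hearts a library held. The descriptions of the 2 sham libraries cite an earlier deposit and those of the 2 TAC libraries do not, so surgery and the origin of the library cannot be told apart.

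Long non-coding RNAs are transcripts without a protein product. Many are copied from the opposite strand of a coding gene's promoter, others host microRNAs or small nucleolar RNAs in their introns, and a few, such as Malat1, Neat1 and Xist, act in the nucleus as RNA. Acetylation of histone H3 marks active promoters and enhancers. Histone deacetylases remove it, so that their inhibition tends to raise it.

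The 8 sequences that follow are RefSeq promoters, 250 bases before to 50 bases after the annotated start, on build GRCm38.p6, printed 5′ to 3′ on the gene's strand. The counts were made by the authors on mm9, so these coordinates place the sequence and not the counted window. Capitals mark CG dinucleotides, a feature that is compared with the acetylation level after the sequences. Malat1 and 0610009L18Rik are shown as strongly acetylated promoters, at chr19:5802623-5802922 (minus strand) and chr11:120348428-120348727 (plus strand). Mir1a-1hg (chr2:180385354-180385653, plus), C130080G10Rik (chr2:114054146-114054445, plus), Gm9899 (chr5:30588570-30588869, minus) and Gm5105 (chr3:138067339-138067638, minus) are shown because they passed the test for TSA. D030025P21Rik (chr12:84875552-84875851, plus) and F630028O10Rik (chrX:96239676-96239975, plus) are shown because their levels moved the other way in the overloaded ventricle.
Malat1: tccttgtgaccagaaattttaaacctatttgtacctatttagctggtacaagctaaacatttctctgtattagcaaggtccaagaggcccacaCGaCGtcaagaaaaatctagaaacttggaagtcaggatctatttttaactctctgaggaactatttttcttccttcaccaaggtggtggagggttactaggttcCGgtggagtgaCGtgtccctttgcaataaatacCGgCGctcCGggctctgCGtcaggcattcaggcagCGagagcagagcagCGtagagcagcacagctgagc
0610009L18Rik: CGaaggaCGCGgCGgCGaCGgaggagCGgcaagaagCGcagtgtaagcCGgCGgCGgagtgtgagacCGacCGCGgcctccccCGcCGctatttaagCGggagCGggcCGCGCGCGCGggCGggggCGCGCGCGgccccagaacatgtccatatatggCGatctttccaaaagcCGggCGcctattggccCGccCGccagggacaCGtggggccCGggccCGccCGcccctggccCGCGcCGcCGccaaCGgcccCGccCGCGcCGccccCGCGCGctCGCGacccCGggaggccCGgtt
Mir1a-1hg: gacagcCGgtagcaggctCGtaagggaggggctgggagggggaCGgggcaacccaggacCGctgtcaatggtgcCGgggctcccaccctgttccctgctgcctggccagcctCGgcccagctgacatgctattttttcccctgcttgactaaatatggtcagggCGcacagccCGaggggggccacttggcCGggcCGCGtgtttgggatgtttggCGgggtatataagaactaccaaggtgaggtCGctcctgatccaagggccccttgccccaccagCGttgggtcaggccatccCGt
C130080G10Rik: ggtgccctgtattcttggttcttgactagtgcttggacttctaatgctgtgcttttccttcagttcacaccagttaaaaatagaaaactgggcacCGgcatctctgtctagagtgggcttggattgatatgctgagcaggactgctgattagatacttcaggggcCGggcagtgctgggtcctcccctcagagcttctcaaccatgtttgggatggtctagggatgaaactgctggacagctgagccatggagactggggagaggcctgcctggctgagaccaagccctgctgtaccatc
Gm9899: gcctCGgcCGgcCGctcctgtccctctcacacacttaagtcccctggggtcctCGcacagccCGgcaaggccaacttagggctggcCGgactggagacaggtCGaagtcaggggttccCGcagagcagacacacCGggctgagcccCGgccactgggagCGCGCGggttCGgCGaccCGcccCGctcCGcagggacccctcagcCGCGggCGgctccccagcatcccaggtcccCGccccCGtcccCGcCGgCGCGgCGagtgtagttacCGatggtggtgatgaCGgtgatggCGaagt
Gm5105: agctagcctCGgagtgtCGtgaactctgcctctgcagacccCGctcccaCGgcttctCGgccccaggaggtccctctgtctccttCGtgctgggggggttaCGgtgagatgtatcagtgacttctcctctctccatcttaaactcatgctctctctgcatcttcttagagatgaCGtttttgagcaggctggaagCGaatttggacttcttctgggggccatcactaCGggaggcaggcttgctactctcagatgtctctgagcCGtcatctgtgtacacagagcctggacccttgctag
D030025P21Rik: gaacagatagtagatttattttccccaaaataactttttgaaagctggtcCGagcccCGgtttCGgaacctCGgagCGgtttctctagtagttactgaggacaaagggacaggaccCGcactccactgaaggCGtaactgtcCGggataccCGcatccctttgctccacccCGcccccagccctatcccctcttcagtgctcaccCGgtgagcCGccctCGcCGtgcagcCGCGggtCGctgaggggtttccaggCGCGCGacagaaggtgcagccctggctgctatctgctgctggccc
F630028O10Rik: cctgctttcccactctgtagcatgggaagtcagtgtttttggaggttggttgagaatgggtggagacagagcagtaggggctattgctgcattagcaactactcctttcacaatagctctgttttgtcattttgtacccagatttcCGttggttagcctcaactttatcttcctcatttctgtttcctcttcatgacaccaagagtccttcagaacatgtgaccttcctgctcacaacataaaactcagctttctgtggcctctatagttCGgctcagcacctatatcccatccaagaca

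These 8 windows ran from 2 CG dinucleotides in C130080G10Rik and F630028O10Rik to 53 in 0610009L18Rik. Mir1a-1hg held 15, Gm9899 held 31, Gm5105 held 11, D030025P21Rik held 20 and Malat1 held 10. The GC-box core GGGCGG, searched on both strands, occurred 6 times in 0610009L18Rik, 3 times in Gm9899 and 2 times in D030025P21Rik, and in none of the other 5 windows.

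Library totals over the promoter table were 9612616 counts in Sham Veh against 9905553 in Sham TSA, and 8873302 in TAC Veh against 6842296 in TAC TSA. Long non-coding promoters held between 5.31% (Sham Veh and Sham TSA) and 5.48% (TAC TSA) of the counts of tested genes. Levels are given as CPM, counts divided by the TMM-scaled library size and multiplied to a common size of 1e6. Promoters of olfactory and vomeronasal receptor genes, which are silent in heart, served as the measure of background, and their median went from 2.51 CPM (Sham Veh) and 2.60 (Sham TSA) to 3.15 with TAC Veh and 4.37 with TAC TSA. The length of the counted window is not given in the sources used here, so a comparison of levels between promoters takes the windows as equal. All 4 libraries carried signal at the promoters of cardiomyocyte, endothelial, fibroblast, smooth muscle and leukocyte marker genes, with no tested marker at 0.

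Long non-coding promoters were less acetylated than protein-coding ones. The median over the 4 libraries was 15.3 CPM (quartiles 8.07 and 44.2) for the 1724 long non-coding promoters, against 46.5 CPM for 18379 protein-coding promoters without the receptors, 17.6 CPM for 1041 microRNA genes and 3.12 CPM for 1274 receptor genes. A promoter was called above background when it exceeded the 95th percentile of the receptor promoters in all 4 libraries, which ran from 7.65 CPM (Sham TSA) to 10.1 (TAC TSA). By this measure 1136 of 1724 long non-coding promoters (65.9%) were above background, against 84.9% of protein-coding promoters and 77.8% of all genes. At the 99th percentile, 760 (44.1%) were. Among the 1000 most acetylated genes, 58 were long non-coding, while long non-coding genes made up 7.55% of all genes tested.

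Levels differed with the presence of a coding start nearby. In the RefSeq table, 286 tested promoters had a protein-coding start on the opposite strand within 2000 bases, and their median was 65.2 CPM, with 92.7% above background. Another 12 had one on the same strand, with a median of 81.6 CPM. The 1031 promoters with no coding start within that distance had a median of 11.9 CPM, and 57.8% of them were above background. The remaining 395 could not be classed, because the table gives no strand for them or for a coding gene near them.

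**Figure D1:**
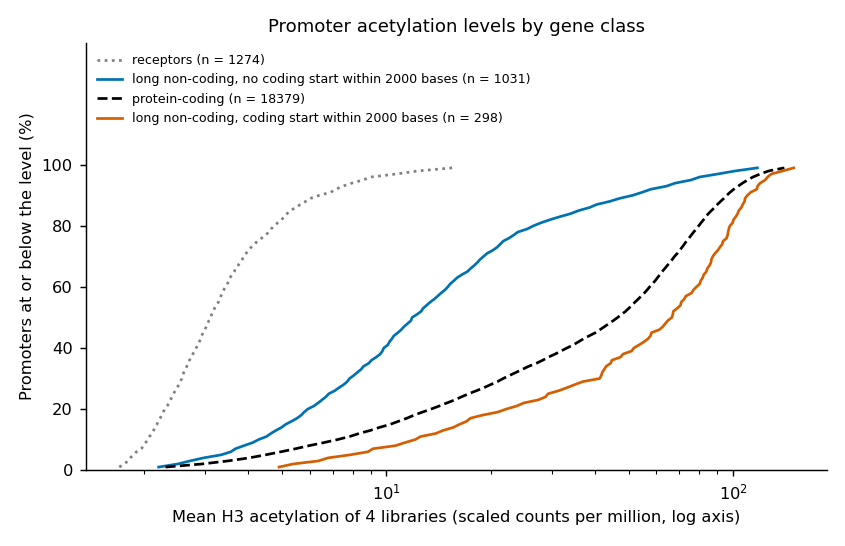
Cumulative share of promoters (y axis, percent) at or below a mean acetylation level (x axis, CPM, log scale) for 4 gene classes. Long non-coding promoters with a coding start within 2000 bases lie to the right of protein-coding promoters at most levels, and those without one lie between protein-coding and receptor promoters.

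The promoters of such pairs gave nearly the same counts. Of 290 pairs of a long non-coding and a coding start within 2000 bases, 280 had levels within 1.5-fold of each other, and the median ratio was 0.996. Where both had a mean count of at least 100 (244 pairs), the log2 ratios between libraries of the 2 promoters differed by a median of 0.01 in each of the 4 comparisons, with Pearson's r of 0.94 to 0.97 across pairs. The median difference in log2 level grew from 0.01 for starts within 500 bases (176 pairs) to 0.06 for starts 1000 to 2000 bases apart (26 pairs), 0.30 at 2000 to 5000 bases (34 pairs) and 0.84 at 5000 to 10000 bases (45 pairs). Beyond 5000 bases the log2 ratios of TAC TSA over TAC Veh had r of -0.07 (45 pairs) and, from 10000 to 50000 bases, 0.15 (146 pairs). For 4 genes the counts were equal to those of a coding gene in every library: Gm20605 with Lrch4, Gm28042 with Jmjd7, Gm44502 with Chkb and Gm44505 with Zfp91. At such places the counts do not say which of the 2 transcripts a change in acetylation belongs to.

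**Figure D2:**
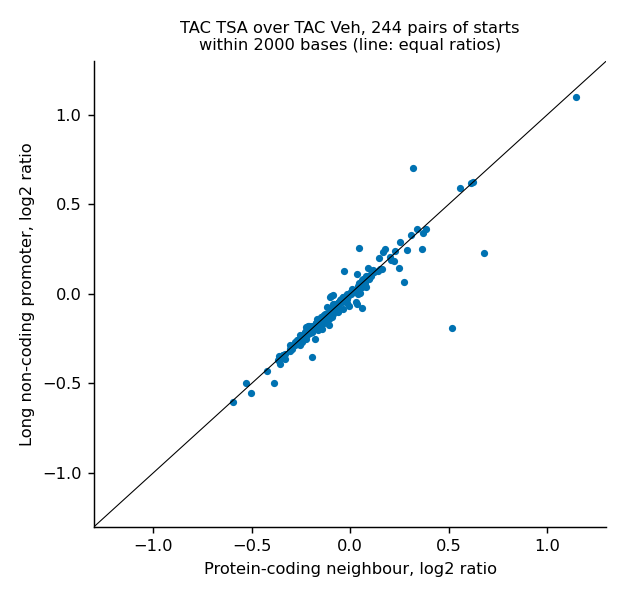
Log2 ratio of TAC TSA over TAC Veh at a long non-coding promoter (y axis) against that of its protein-coding neighbour (x axis), for 244 pairs of starts within 2000 bases, each point 1 pair and the line equal ratios. Nearly all points lie along the line, and Pearson's r was 0.94.

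The acetylation level went with the CG content of the promoter sequence. Of the tested promoters, 1383 had a RefSeq promoter sequence, with a median of 6 CG dinucleotides in the 300 bases, against 17 in protein-coding promoters. The median level was 9.41 CPM with 0 to 4 CG dinucleotides (573 promoters), 15.1 CPM with 5 to 9 (322), 30.5 CPM with 10 to 19 (199) and 71.9 CPM with 20 or more (289). Protein-coding medians in the same order were 10.6, 22.6, 52.3 and 67.1 CPM. The long non-coding median was thus the lower one except at 20 or more. The share of long non-coding promoters above background in the same order was 44.9%, 68.9%, 80.4% and 97.6%. Spearman's rho between CG number and level was 0.64 across the 1383 promoters and 0.57 across 14630 protein-coding promoters, a description across genes in the same 4 libraries, with base composition and read mapping shared.

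**Figure D3:**
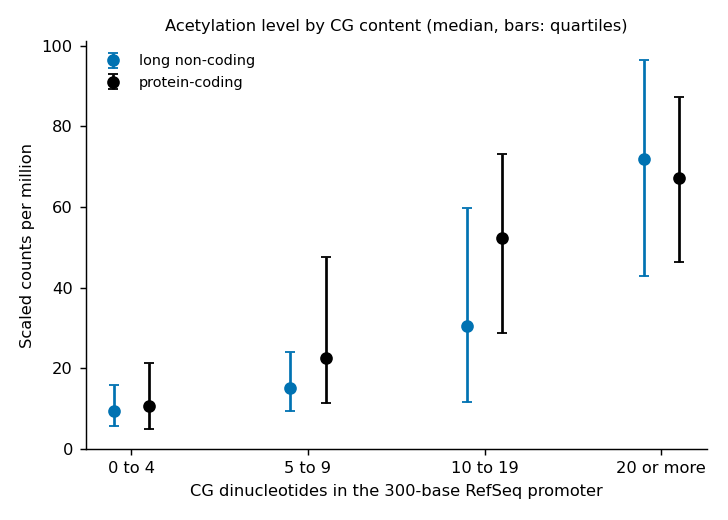
Median acetylation level (y axis, CPM) by the number of CG dinucleotides in the 300-base promoter (x axis) for long non-coding and protein-coding genes, with bars for the quartiles. In the long non-coding promoters the median rises from 9.41 to 71.9 CPM, and in the protein-coding ones from 10.6 to 67.1 CPM.

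Short motifs were searched on both strands of the same windows, and all RefSeq promoters of that length (27025) serve as the reference. The GC box core GGGCGG was in 39.8% of long non-coding promoters above background and 8.66% of the others, against 35.9% of all promoters. The ETS-type CCGGAAG was in 9.55% and 2.38%, against 9.14%. TATAAA ran the other way, at 9.01% and 17.7%, against 14.2%. The MEF2-type motif, CTA and TAG with any 4 bases between, was in 3.80% and 5.63%, against 3.70%. The GATA-type AGATAAG was in 2.17% and 3.03%, against 3.06%. The E-box CACGTG was in 8.58% and 4.98%, against 7.24%. GGGCGG and CCGGAAG contain CG themselves, so their shares are tied to the CG counts above. The same holds for the E-box, which also contains CG.

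Neat1 and Malat1, 2 nuclear RNAs of paraspeckles and nuclear speckles that lie side by side on chromosome 19, were among the most acetylated promoters of the whole ventricle. Neat1 measured 267 CPM in Sham Veh against 268 in Sham TSA, and 237 in TAC Veh against 254 in TAC TSA, and ranked 2 among all genes. Malat1 measured 215, 212, 179.9 and 206 CPM in the same order and ranked 18. Both were lowest in TAC Veh, where the log2 ratio over Sham Veh was -0.18 for Neat1 (interval -0.28 to -0.08) and -0.26 for Malat1 (-0.37 to -0.14). The intervals given with ratios are exact 95% conditional intervals and cover counting error only. They hold no spread between animals, which 1 library per group cannot show.

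The other 8 of the 10 highest lay mostly at coding promoters. 5031425E22Rik overlaps Kmt2e, a gene of the trithorax family, at 244 CPM and rank 4, and its counts were 0.998 to 1.00 times those of Kmt2e. 0610040F04Rik (170.5 CPM) overlaps the transcription factor gene Bhlhe40, R74862 (168 CPM) overlaps the tetraspanin gene Cd81, and E130317F20Rik (164 CPM) overlaps the splicing factor gene Ptbp1. 0610009L18Rik (163 CPM) starts opposite the cytoplasmic actin gene Actg1, with counts 1.02 to 1.03 times those of Actg1. Gata6os (151 CPM) overlaps Gata6, a cardiac transcription factor gene, on chromosome 18. 1700084E18Rik (161 CPM) lies beside Lrrc8a, the gene of a volume-regulated anion channel subunit, and 2210408F21Rik (166 CPM) lies between Klf14 and Mkln1. None of the 10 differed by 1.5-fold between any of the 4 pairs of libraries compared.

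A promoter is called apart here when its scaled counts differ at least 1.5-fold between 2 libraries and the interval leaves out equality. After pressure overload under vehicle (TAC Veh against Sham Veh), 12 of 1724 long non-coding promoters were apart and lower (0.696%) and 56 apart and higher (3.25%). Over all genes the shares were 0.583% lower and 1.93% higher, so the lower share was near that of all genes. Of the 56 higher ones, 54 had a mean count under 100, and 50 were not above background in all 4 libraries. Under 100 counts on average, 6.05% of members were higher, against 5.69% of all genes of that depth. The receptor promoters were apart and higher in 93 of 1274 cases in the same comparison. Among the 832 members averaging at least 100 counts, 2 were higher and 5 lower, where all genes of that depth gave 0.204% and 0.479%. The median log2 ratio was 0.02 for the members and 0.00 for all genes. With receptor promoters used for scaling, where the median of all genes shifts to -0.24, 11 members were higher and 88 lower. After a loess correction of the ratio for count, 24 and 21 were. Over all 22831 genes, receptor scaling gave 119 higher and 860 lower, and loess 211 and 232.

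The 5 members named as lowest against Sham Veh, by the interval bound nearest equality, included transcripts at Actc1 and Trdn, genes of striated muscle. C130080G10Rik starts opposite Actc1, the gene of cardiac alpha-actin, and counted 363 in Sham Veh against 400 in Sham TSA, and 200 in TAC Veh against 340 in TAC TSA. Here and below such counts are unscaled, and TAC TSA had the smallest library total, whereas the ratios use scaled counts. In CPM C130080G10Rik measured 53.6, 57.8, 31.5 and 67.5, highest in TAC TSA. TAC Veh was the lowest of the 4, with a log2 ratio over Sham Veh of -0.77 (interval -1.02 to -0.51). Its counts were 0.903 to 0.976 times those of Actc1, so these counts do not separate it from the Actc1 promoter. D830005E20Rik overlaps Trdn, the gene of the calcium-release protein triadin, and counted 195, 243, 102 and 168 in the same order (log2 ratio -0.84, interval -1.20 to -0.49). 4930449E18Rik lies in Ablim1, the gene of an actin-binding LIM protein, and counted 682, 733, 412 and 467 (-0.63, interval -0.81 to -0.46). Both TAC libraries were below both sham libraries at 4930449E18Rik. D830032E09Rik, between Serpinb8 and Cdh7, counted 110, 138, 57 and 92 (-0.86, interval -1.34 to -0.38), and B230312C02Rik, between Gata5 and Slco4a1, counted 388, 443, 242 and 346 (-0.59, interval -0.83 to -0.35).

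The 10 cardiomyocyte marker genes include Actc1, whose promoter the counts do not separate from C130080G10Rik, so that part of the agreement is shared counts. Promoters of these 10 marker genes moved with the members named above. Their summed level was 610 CPM in Sham Veh against 713 in Sham TSA, and 411 in TAC Veh against 701 in TAC TSA, and 6 of 10 were apart and lower in TAC Veh than in Sham Veh. The 8 fibroblast markers summed to 259, 276, 332 and 271 CPM and the 7 tested leukocyte markers to 134, 168, 173 and 128. The 8 endothelial markers summed to 790, 763, 707 and 725 CPM, also lowest in TAC Veh. The 6 smooth muscle markers summed to 237, 229, 242 and 236 CPM. Their part in the results was not tested. In tissue made of many cell types, fewer cells of a type and less acetylation per cell cannot be told apart.

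At the other end, D030025P21Rik and Gm9767 were highest in TAC Veh and back near sham in TAC TSA. D030025P21Rik starts opposite Ltbp2, the gene of a latent TGF-beta binding protein family member of the matrix, and counted 190 in Sham Veh against 180 in Sham TSA, and 282 in TAC Veh against 147 in TAC TSA. The log2 ratio was 0.66 (interval 0.39 to 0.94) for TAC Veh over Sham Veh, and its counts were 1.01 to 1.05 times those of Ltbp2. Gm9767 starts opposite Tmem200a, a transmembrane protein gene. It counted 80, 83, 136 and 60, or 11.8, 12.0, 21.4 and 11.9 CPM (log2 ratio 0.86, interval 0.45 to 1.28). Both are pairs in which the coding gene was apart the same way. The other 3 named as highest had few reads: Gm13710 (18, 41, 44 and 21 counts), 4930565D16Rik (44, 75, 84 and 78) and 4930452N14Rik (32, 58, 62 and 56). In each of these 3, Sham Veh was the lowest library, and Sham TSA was apart and higher than Sham Veh as well. The fibroblast, leukocyte and smooth muscle sums were, like D030025P21Rik and Gm9767, highest in TAC Veh, and their part in these values was not tested.

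With TSA in the overloaded ventricle (TAC TSA against TAC Veh), 105 members were higher by that rule (6.09%) and 9 lower (0.522%), with 4.06% and 0.342% of all genes. Of the 105, 87 had a mean count under 100, and the receptor promoters were higher in 179 of 1274 cases. Under 100 counts on average, 9.75% of members were higher, against 10.4% of all genes of that depth. Among members averaging at least 100 counts, 18 were higher and 1 lower of 832, against 1.16% and 0.274% of all genes of that depth. The median log2 ratio was 0.08 for the members and 0.00 for all genes. Receptor scaling, which puts the median of all genes at -0.38, left 14 higher and 217 lower, and loess gave 34 and 25. Over all 22831 genes, receptor scaling gave 100 higher and 3258 lower, and loess 330 and 215.

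**Figure D4:**
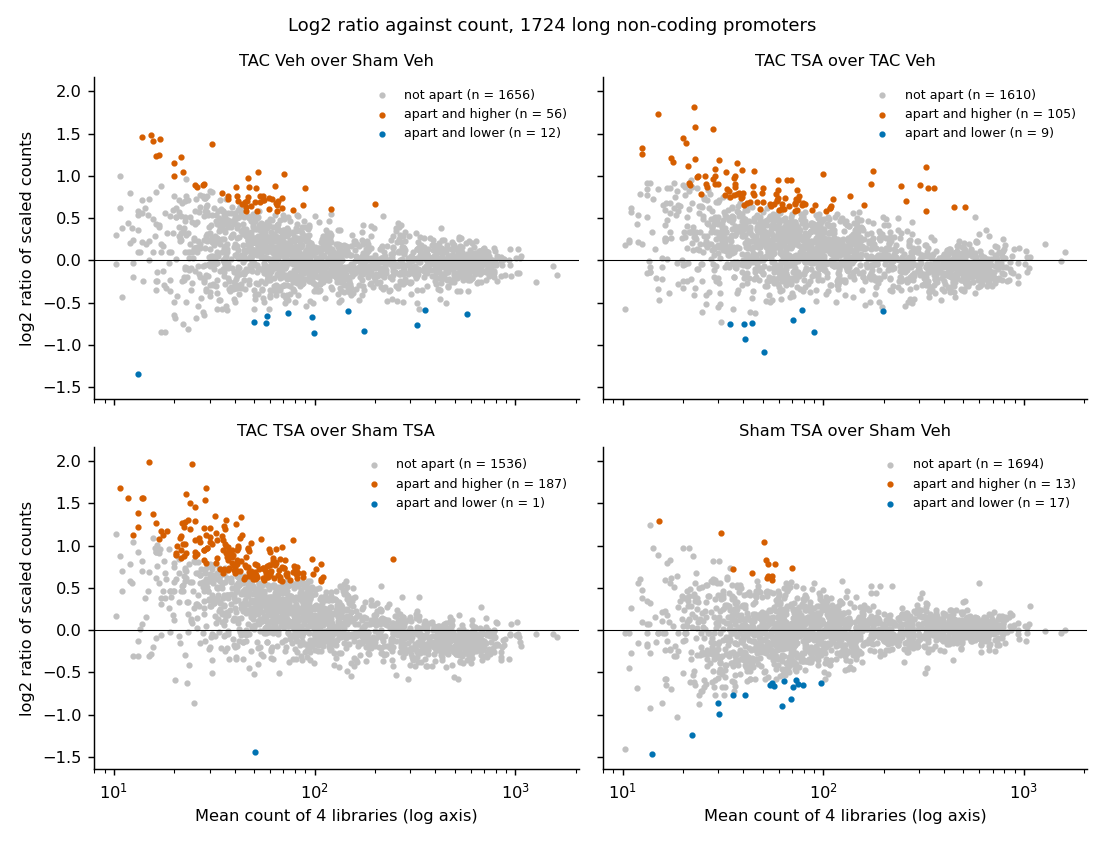
Log2 ratio of scaled counts (y axis) against the mean count of the 4 libraries (x axis, log scale) for the 1724 tested promoters in 4 comparisons, with promoters apart and higher in orange and apart and lower in blue. In the comparisons with TAC TSA most promoters apart and higher lie at mean counts under 100.

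Among the 5 named as highest, 2 were deeply counted. C130080G10Rik had a log2 ratio of 1.10 (interval 0.84 to 1.36) and D830005E20Rik of 1.06 (0.69 to 1.42). The other 3 were thinly counted: 1700061F12Rik, between Celf2 and Gata3, with 16, 22, 14 and 39 counts, 4930556G01Rik, between Epha7 and Map3k7, with 10, 10, 11 and 29, and 1700034K08Rik, between Plod2 and Dipk2a, with 25, 38, 15 and 35. Their levels stayed under the receptor 95th percentile in TAC TSA (7.74, 5.76 and 6.95 CPM against 10.1). Named as lowest were Gm9767 (log2 ratio -0.85, interval -1.31 to -0.40), F630028O10Rik (-1.09, interval -1.86 to -0.36), D030025P21Rik (-0.60, interval -0.90 to -0.31), Gm6260 (-0.93, interval -1.66 to -0.23) and Gm5126 (-0.71, interval -1.24 to -0.19).

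TAC Veh enters both of the last comparisons, so a high or low count in that 1 library moves both ratios in opposite directions. Side by side, 7 members were apart and lower in TAC Veh than in Sham Veh and also higher in TAC TSA over TAC Veh: 4930542D17Rik, B230312C02Rik, C130080G10Rik, D830005E20Rik, D830032E09Rik, Gm10635 and Gm15328. The reverse held for 4: D030025P21Rik, F630028O10Rik, Gm6260 and Gm9767. These overlaps were not counted over all genes, so they are not read as particular to long non-coding promoters. Of the 290 members paired with a tested coding start within 2000 bases, 5 were apart in TAC Veh over Sham Veh and 11 in TAC TSA over TAC Veh, and the coding neighbour was apart the same way at 5 and 9 of them.

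Between the TSA groups (TAC TSA against Sham TSA), higher promoters numbered 187 (10.8%) and lower ones 1 (0.058%), with 7.2% and 0.206% of all genes. Of the 187, 181 had a mean count under 100, and receptor promoters were higher in 372 of 1274 cases, the most of any comparison. Under 100 counts on average, 20.3% of members were higher, against 22.1% of all genes of that depth. Among deeply counted members 6 were higher and 0 lower of 832, against 0.357% and 0.166% of all genes of that depth. Loess gave 25 higher and 21 lower, and receptor scaling, with the median of all genes at -0.61, gave 6 and 668. Over all 22831 genes, loess gave 225 higher and 260 lower, and receptor scaling 102 and 11891. The 5 named as highest were thinly counted: Gm9871 (13 in Sham TSA against 37 in TAC TSA), 4930556G01Rik (10 against 29), Gm10280 (18 against 42), 4930548K13Rik (18 against 40) and 1700044C05Rik (30 against 55). The 1 member that was lower was F630028O10Rik (82 against 22, log2 ratio -1.44, interval -2.19 to -0.75).

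F630028O10Rik, the gene whose listed synonym is mir-223 and which lies between Msn and Vsig4 on the X chromosome, varied between all 4 libraries. Its level was 5.76 CPM in Sham Veh against 11.8 in Sham TSA, and 9.28 in TAC Veh against 4.37 in TAC TSA. Mir223 is a microRNA of myeloid cells. The summed level of the leukocyte markers was likewise lowest in TAC TSA and Sham Veh and highest in Sham TSA and TAC Veh, a description over 4 libraries whose part in the result was not tested.

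In the sham ventricle (Sham TSA against Sham Veh), 13 members were apart upwards (0.754%) and 17 downwards (0.986%), with 0.583% and 0.583% of all genes. All 30 had a mean count under 100. The 832 deeper members gave 0 in either direction, and all genes of that greater depth 0.0702% higher and 0.0511% lower. Under 100 counts on average, 1.46% of members were higher and 1.91% lower, against 1.70% and 1.74% of all genes. The median log2 ratio was 0.00 for the members and 0.01 for all genes. Besides F630028O10Rik, Gm13710, 4930565D16Rik and 4930452N14Rik, Gm10046, between Zfp60 and Zfp626, was named as higher (45 counts in Sham Veh against 79 in Sham TSA). Named as lower were AI115009 in Ak5 (75 against 41), 3110009F21Rik between Rtl1 and Dio3 (79 against 46), 4930590L20Rik in Kcnt2 (30 against 13), Gm6249 between Mki67 and Mgmt (115 against 76) and Frmpd1os in Frmpd1 (94 against 61). At all 5 of these, Sham TSA was the lowest of the 4 libraries, and all 5 were also apart and higher in TAC TSA than in Sham TSA, a comparison that shares the Sham TSA library.

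A set of 6 lists groups long non-coding genes by function, and the shares of all genes apart are those given above. Small RNA host genes, whose introns carry small nucleolar RNAs or microRNAs, had all 24 tested members of the list above background, with a median of 63.9 CPM and a range from 11.9 CPM at Mir9-3hg to 142 CPM at Dleu2. None of these 24 was apart in any comparison, but the list does not hold Mir1a-1hg, a microRNA host that was apart and higher in TAC TSA over TAC Veh. Snhg1 measured 86.8, 96.9, 89.4 and 89.0 CPM, in the order of libraries used above (sham with vehicle and TSA, then TAC with vehicle and TSA). The heart and vessel list had 11 of 12 tested members above background, a median of 53.7 CPM and none apart. In it, Carmn, a transcript of the Mir143 and Mir145 locus of smooth muscle, measured 56.4, 58.6, 59.2 and 58.2 CPM in the same order, and the intervals of its 4 ratios all included 0. Mir22hg, host of a microRNA abundant in heart muscle, measured 99.6, 114, 107 and 107 CPM. Fendrr, a transcript of lateral mesoderm beside Foxf1, measured 45.3, 34.9, 41.2 and 39.3 CPM, and was lowest in Sham TSA (log2 ratio over Sham Veh -0.37, interval -0.62 to -0.13), short of 1.5-fold.

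Of the 12 abundant nuclear and widely expressed members, 11 were above background and none was apart. The imprinted list had 9 tested members, 6 of them above background, and a median of 11.6 CPM. Airn and Kcnq1ot1, which silence their neighbours on the paternal chromosome, measured 73.0 to 81.3 and 57.4 to 61.5 CPM over the 4 libraries, whereas Meg3, the maternally expressed transcript of the Dlk1 and Dio3 domain, measured 8.66 to 12.1 CPM. Mirg, from the same domain, was apart and higher in TAC Veh than in Sham Veh (55 against 35 counts, log2 ratio 0.74, interval 0.11 to 1.40). Xist, the RNA that coats the inactive X chromosome of female cells, is 1 of the 3 tested members of the X inactivation list. In these male mice it measured 8.85, 7.36, 8.03 and 8.94 CPM in that order. The receptor 95th percentile was 8.17, 7.65, 8.65 and 10.1 CPM, so Xist was above it in Sham Veh only. Jpx and Ftx, its neighbours, measured 29.9 to 32.8 and 31.2 to 36.0 CPM. The homeobox and developmental list had 13 of 17 tested members above background and a median of 15.7 CPM. Sox2ot (36 against 21 counts) was apart and higher in TAC Veh than in Sham Veh. Hotair (51 against 33 counts), Pax6os1 (82 against 70) and Six3os1 (76 against 59) were apart and higher in TAC TSA than in Sham TSA. Scaled for library size, Pax6os1 was 16.3 against 10.1 CPM. The receptor promoters were higher in this comparison too.

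One test used all 4 libraries: a fit of surgery and drug as additive effects with edgeR's quasi-likelihood test and Benjamini-Hochberg adjustment over the 22831 genes, at an adjusted p of 0.05. Its 1 residual degree of freedom is the interaction of surgery and drug, and its p-values measure that spread and not the spread between animals. With TSA, 8 of 1724 members were higher (0.464%), against 45 of all genes (0.197%). No member was lower, against 3 of all genes (0.0131%), and at an unadjusted p under 0.05 there were 56 members higher and 22 lower. For surgery, no member was called higher or lower, against 3 genes in each direction (0.0131% each). At an unadjusted p under 0.05 there were 127 members higher and 56 lower. The unadjusted counts were not made over all genes, so they are not read as a result about the members. For TSA, DESeq2 called none of the 8, limma-voom called 6, and scaling on receptor promoters left none called. Over all 22831 genes, DESeq2 and receptor scaling each called 0 higher with TSA, and limma-voom called 36. Next in line was 9330158H04Rik for TSA (log2 change 0.44, adjusted p = 0.082) and 4930449E18Rik for surgery (-0.41, adjusted p = 0.0586), both from edgeR's quasi-likelihood test.

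The 8 promoters that rose with TSA lay at 7 places. In each of the 8 both TSA libraries were above both vehicle libraries, an order that their selection from these same libraries favours. Gm9899 overlaps Kcnk3, the gene of a background potassium channel, and measured 43.7 CPM in Sham Veh against 57.0 in Sham TSA, and 33.0 in TAC Veh against 61.4 in TAC TSA (log2 change 0.62, edgeR adjusted p = 0.00104). Its counts were 1.02 to 1.08 times those of Kcnk3, which was called with a log2 change of 0.65 (edgeR adjusted p = 0.000985). C130080G10Rik measured 53.6, 57.8, 31.5 and 67.5 CPM (log2 change 0.56, edgeR adjusted p = 0.00333), and Actc1, opposite it, had a log2 change of 0.59. The sham libraries were close to each other here and the TAC libraries were not: the log2 ratio of TSA over vehicle was 0.11 in sham (interval -0.10 to 0.32) and 1.10 in TAC.

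Mir1a-1hg is the host transcript of Mir1a-1 and Mir133a-2, microRNAs of heart and skeletal muscle. Its promoter measured 53.4 CPM in Sham Veh against 59.6 in Sham TSA, and 35.9 in TAC Veh against 64.9 in TAC TSA (log2 change 0.48, edgeR adjusted p = 0.0284). B230312C02Rik, which lies in the same gap between Gata5 and Slco4a1, measured 57.3, 64.0, 38.1 and 68.7 CPM (0.48, edgeR adjusted p = 0.0233). The counts of these 2 promoters stayed at a ratio of 1.06 to 1.07 in all 4 libraries, so they count as 1 place. D830005E20Rik, in Trdn, measured 28.8, 35.1, 16.1 and 33.4 CPM (0.61, edgeR adjusted p = 0.0414), and the Trdn promoter itself had a log2 change of 0.50 and an edgeR adjusted p of 0.508. All 3 were lowest in TAC Veh.

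The other 3 of the 8 lay beside coding genes with smaller log2 changes, where these were measured. The changes ran from -0.18 at Dapp1, which flanks Gm5105, to 0.13 at Tmem30b, which flanks D830013O20Rik. In TAC TSA over TAC Veh, Tmem30b had a log2 ratio of 0.44 (interval 0.10 to 0.78). Gm5105, which lies in 1110002E22Rik next to Mttp (log2 change 0.06), measured 76.9, 97.3, 60.0 and 92.9 CPM (log2 change 0.48, edgeR adjusted p = 0.00269). 4930481A15Rik overlaps Drap1, the gene of a repressor of transcription, and measured 77.8, 115, 85.0 and 105 CPM (0.44, edgeR adjusted p = 0.00453), while Drap1 had a log2 change of 0.01. D830013O20Rik, beside the amino acid transporter gene Slc38a6, measured 24.2, 34.7, 18.3 and 34.2 CPM (0.69, edgeR adjusted p = 0.0106), while Slc38a6 had a log2 change of -0.02. 4930481A15Rik was the 1 of the 8 whose ratio was larger in sham (0.56, interval 0.40 to 0.73) than in TAC (0.31, interval 0.13 to 0.48).

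**Figure D5:**
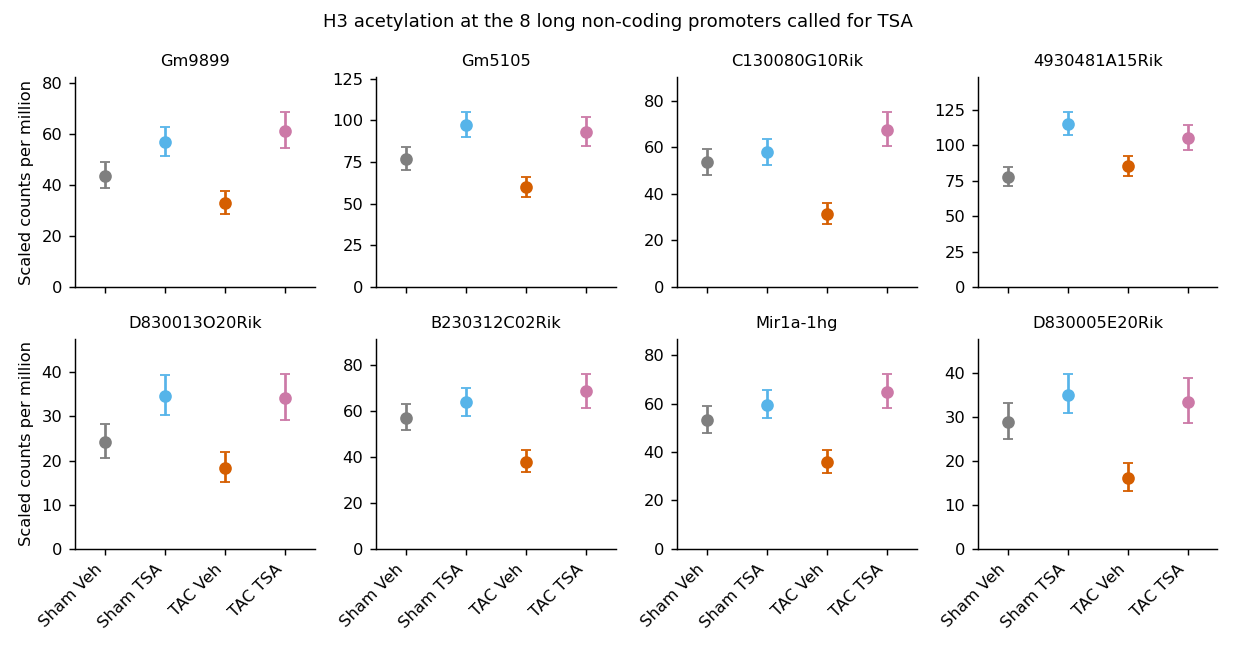
CPM (y axis, from 0) in the 4 libraries (x axis) for the 8 long non-coding promoters called for TSA, with exact 95% Poisson intervals for counting error as bars, 1 library per point. TAC Veh is the lowest library in 7 of the 8, and 4930481A15Rik is lowest in Sham Veh.

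At 7 of the 8, all but 4930481A15Rik, the ratio of TSA over vehicle was larger in TAC than in sham mice, a difference that was not tested. In TAC TSA over TAC Veh, 7 of 8 were apart and higher and all 8 intervals lay above 0. In Sham TSA over Sham Veh none was apart, all 8 ratios were above 0 (0.11 to 0.56) and 5 intervals lay above 0. The 8 were chosen for a TSA effect in these same libraries, so the directions of these TSA ratios give no separate support. In TAC Veh over Sham Veh, 3 were apart and lower and 7 intervals lay below 0. In TAC TSA over Sham TSA none was apart, and 1 interval lay above 0. Of the 10 cardiomyocyte markers, 9 were apart and higher in TAC TSA over TAC Veh and none in Sham TSA over Sham Veh. These markers include Actc1, which the counts do not separate from C130080G10Rik. They moved in the same libraries, and their part in the result was not tested.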

How the data were processed

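Per the submitters' processing notes, reads were processed with BWA 0.5.9 and MACS 1.4.1 on mm9. The deposited table holds raw counts per promoter, 1 row per RefSeq identifier. The counting tool, window, duplicate handling and use of an input were not given in the sources used here. Fixation lasted 10 minutes and libraries had 15 PCR cycles, per the labels. Of 31594 identifiers, 31111 matched the RefSeq gene table (GRCm38.p6), and unmatched ones held 1.13% of counts. The region lists were not used here.

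Counts were scaled by TMM (edgeR 4.0.16) over genes averaging at least 10 counts. With 1 library per group there is no test between groups: ratios carry exact 95% conditional (Clopper-Pearson) intervals for counting error only, and "apart" needs 1.5-fold and an interval without equality. The additive fit used edgeR's quasi-likelihood test, with DESeq2 1.42.0 and limma 3.58.1 as alternatives. Neighbours and promoter sequences came from RefSeq, with 1398 members matched to a sequence. Both procedures were tested on simulated data. Named were the 10 highest members, the 5 per comparison and direction whose interval bound lay farthest from equality, all called members and examples from 6 lists. Members and lists were chosen with earlier results of these data known. How many hearts each library held is not stated. The p-values measure the interaction of surgery and drug in these libraries and not the spread between animals.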

Additional observations from a re-analysis of the deposited data

Results flagged for a closer look

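At 2 promoters the ratio of 1 contrast had opposite directions in 2 settings, each with an interval that excluded equality, while the difference between the settings was not tested. At F630028O10Rik the log2 ratio of TSA over vehicle was 1.04 in sham and -1.09 in TAC mice, and that of TAC over sham was 0.69 under vehicle and -1.44 under TSA, on 22 to 82 counts per library. At C230079O03Rik the log2 ratio of TSA over vehicle was -0.65 in sham and 0.67 in TAC mice, on 41 to 63 counts per library.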

How the results depend on the processing

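Counts of promoters apart are given as higher and lower. For TAC Veh over Sham Veh they were 24 and 21 after loess, 11 and 88 with receptor scaling, 2 and 3 at a mean count of at least 100, and 12 and 1 at 2-fold; the lower count was 3 without members that have a coding start within 2000 bases. For TAC TSA over TAC Veh they were 34 and 25, 14 and 217, 21 and 0, and 22 and 1 under the same 4 settings. For TAC TSA over Sham TSA they were 25 and 21, 6 and 668, and 13 and 0 under the first 3, with 56 higher at 2-fold. For Sham TSA over Sham Veh they were 0 and 0 at a mean count of at least 100, and 3 and 2 at 2-fold. The counts over all genes follow in the same order of settings. TAC Veh over Sham Veh gave 211 and 232, 119 and 860, 42 and 64, and 189 and 15. TAC TSA over TAC Veh gave 330 and 215, 100 and 3258, 241 and 23, and 289 and 2. TAC TSA over Sham TSA gave 225 and 260, 102 and 11891, and 138 and 14, with 680 higher at 2-fold. Sham TSA over Sham Veh gave 10 and 9, and 45 and 32. These count 22831 genes, or 15665 at a mean count of at least 100. Members raised by TSA numbered 0 with DESeq2 (6 at an unadjusted p under 0.05) and 0 with receptor scaling (12), 3 at a mean count of at least 100, and 4 without members near a coding start; limma-voom called 6. Members lowered by surgery numbered 1 with median-of-ratios scaling and 2 with receptor scaling. Over all genes, 5 and 22 were lowered by surgery under the same scalings. Genes raised by TSA numbered 0 with DESeq2, 0 with receptor scaling, 11 at a mean count of at least 100 and 36 with limma-voom. The unadjusted counts were not made over all genes. Of members without a coding start nearby, 596 were above background. The cause of these shifts was not tested, except that a stricter fold and fewer members lower a count by construction. The setting at a mean count of at least 100 also scaled the libraries anew over those genes. Its counts can therefore differ from those given in the Results for members of that depth under the main scaling. None of the 36 named ratios and 8 named TSA effects changed direction under the settings that gave them a value; the other promoters apart were not followed one by one. Under receptor scaling the members' median log2 ratio in TAC TSA over Sham TSA was -0.49. The comparison of the sham libraries alone, an alternative added after seeing the data, had none of the 8 TSA promoters apart. With 1 library per group no library could be left out within a group. No paired analysis was possible because each group has 1 library.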
